A study of Mus musculus with 8 samples.

Results

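Collagens and the enzymes that fold and cross-link them were examined in whole cerebellum of mice in which an astrocyte calcium pump was switched on. The genes were chosen by name: all rows of the form Col, number, a, number, together with the collagen chaperone Serpinh1, the prolyl 4-hydroxylases P4ha1, P4ha2 and P4ha3, the lysyl hydroxylases Plod1, Plod2 and Plod3, and the lysyl oxidases Lox and Loxl1 to Loxl4. Of the 24060 rows of the count table, 56 bore such a name, 44 collagens and 12 others, and 52 of them had at least 10 counts in at least 4 of the 8 libraries. Those 52 genes, 41 collagens and 11 others, are described here. Col6a4 lay just inside this limit, with at least 10 counts in exactly 4 libraries (13, 14 and 15 in bigenic libraries 1 to 3 and 12 in control library 4). Col6a5 lay just outside it with 3 such libraries (29, 22 and 18 counts), and Col24a1, Col10a1 and P4ha3 also stayed below it. Col6a6 reached 10 counts in all 4 control libraries but in only 1 bigenic library, so that its inclusion rested on the group in which it was higher.

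The 4 bigenic mice carried CalExflox, a Cre-dependent allele of the plasma membrane calcium pump CalEx, and also Aldh1l1-Cre/ERT2, which makes a recombinase that needs tamoxifen, under the control of the astrocyte gene Aldh1l1. The 4 control mice carried CalExflox alone. Each of the 8 mice received intraperitoneal tamoxifen on a single day at 75 mg/kg, and cerebellum was taken 5 days later. Only the bigenic mice carried Cre, so the effects of the pump and of Cre cannot be told apart. Neither age nor sex is given in the sources used here. The RNA came from the whole tissue and not from sorted astrocytes, and in such bulk samples fewer cells of a type and less RNA per cell cannot be told apart.

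Collagens are secreted or membrane proteins built from 3 chains wound into a triple helix. Prolyl 4-hydroxylases in the endoplasmic reticulum modify the chains so that the helix is stable, the chaperone encoded by Serpinh1 (HSP47) binds the folded procollagen there, lysyl hydroxylases prepare sites for sugars and cross-links, and lysyl oxidases cross-link collagen outside the cell. In the brain the fibrillar collagens are largely confined to the meninges and the walls of larger vessels, whereas collagen IV lies in the basement membrane around every vessel and beneath the meninges.

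The labels were first set against marker genes. The 10 markers of cerebellar neurons summed to between 10820.7 and 11819.5 CPM (counts scaled to library depth) in the bigenic and between 10000.6 and 11545.8 CPM in the control libraries. Ttr, which encodes transthyretin and marks the choroid plexus epithelium, was at 4.62, 2.43, 2.75 and 2.25 CPM in the bigenic and 300.2, 2360.5, 2961 and 2.76 CPM in the control libraries (libraries 1 to 4 of each group in order, here and below). It was high in control libraries 2 and 3, intermediate in control library 1, and in control library 4 within the bigenic range (log2 fold change -8.87 ± 2.11, SE; adjusted p = 0.016). Of 12 choroid plexus markers tested 11 were lower in bigenic tissue. The summed level of the 13 listed ranged from 164 to 234 CPM in bigenic and from 296 to 4896 CPM in control libraries, and Sostdc1 was at 0 in bigenic libraries 1 and 4 and Kcne2 at 0 in control library 4. Total counts ranged from 35208460 to 38293012 per library, and the 52 genes took between 0.0517% and 0.0632% of them in bigenic and between 0.0615% and 0.0751% in control libraries.

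In bigenic cerebellum 20 of the 52 genes were lower and 6 were higher than in controls, by edgeR's quasi-likelihood test at a Benjamini-Hochberg adjusted p under 0.05 over all 15186 genes tested. The background was broad: 22.9% of all genes tested were lower and 21.4% higher by the same rule, against 38.5% and 11.5% of the 52. These shares of all genes are also the background for the counts of each role and list below, where all libraries were used. The lower genes held the chaperone, both prolyl 4-hydroxylases tested, 2 of 3 lysyl hydroxylases and 2 of 5 lysyl oxidases. Of the 41 collagens 13 were lower, 6 higher and 22 not past the threshold, while of the 11 chaperone and enzyme genes 7 were lower, none higher and 4 not past it. The median log2 fold change, bigenic relative to control, was -0.11 over the collagens, -0.37 over the 11 other genes and -0.00414 over all genes tested. The collagen median changed sign, to 0.15 with Ttr as a covariate and to 0.13 with control library 4 as the only control. For 14 of the 52 genes every bigenic library lay below every control library, and for 4 every bigenic library lay above, where 21.4% and 19.4% of all genes tested did so. Col6a6, whose inclusion rested on the control group, is among the 20 lower genes and among the 14 without overlap.

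**Figure D1:**
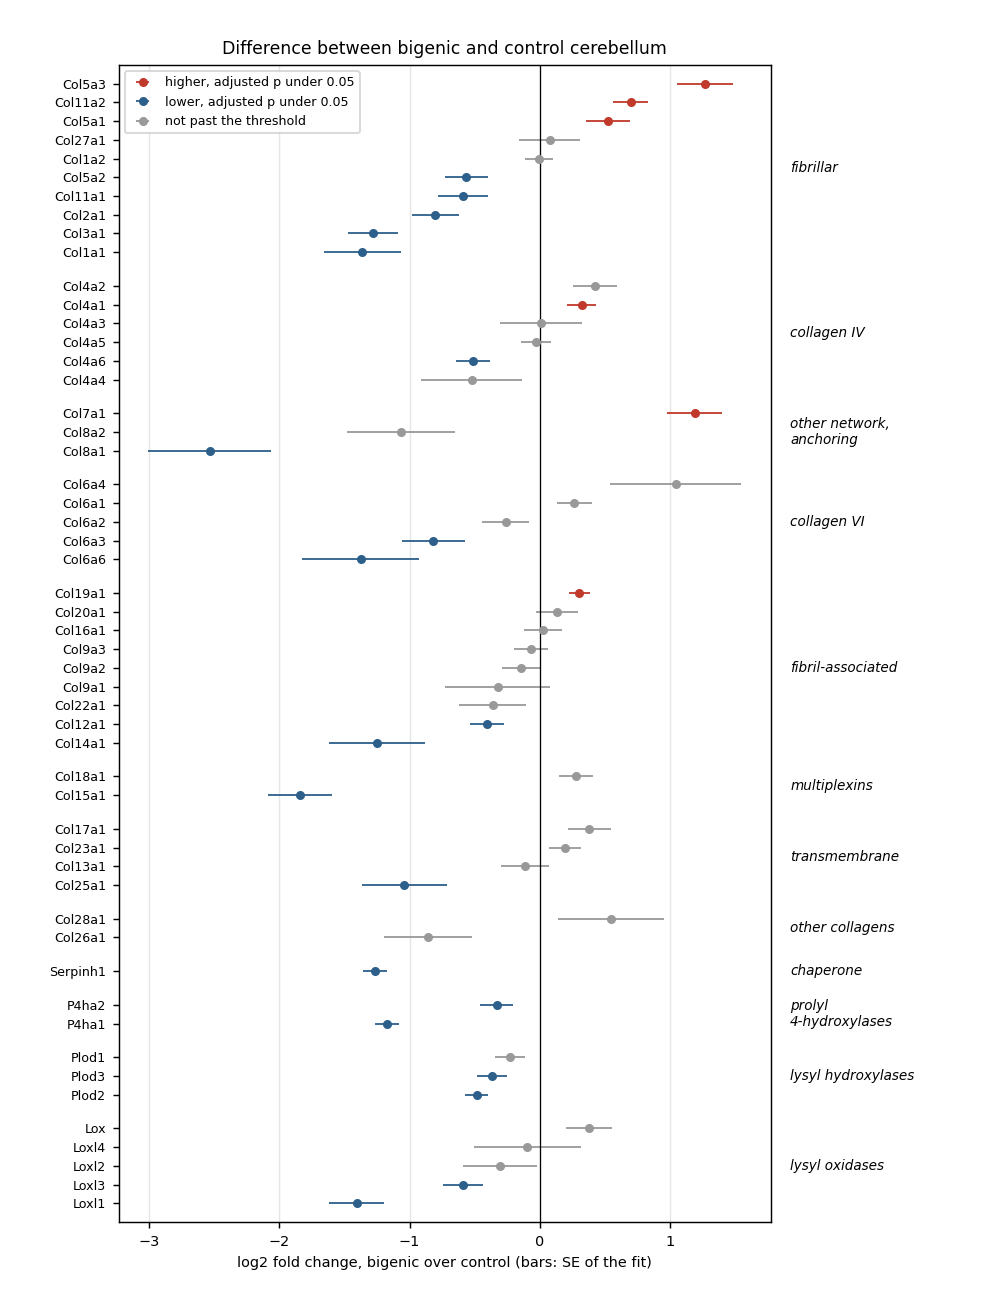
Log2 fold change of each of the 52 genes, bigenic over control, on the horizontal axis, with the standard error of the fit as a bar and genes grouped by role. Blue points (20 genes) are lower, red points (6) higher at an adjusted p under 0.05, and grey points did not pass; all 7 called genes among the chaperone and enzymes lie left of 0.

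The chaperone and the main prolyl 4-hydroxylase showed the clearest differences. Serpinh1 (chromosome 7, 99345376 to 99353239, minus strand) stood at 18.9, 19.5, 17.3 and 19.8 CPM in the bigenic and 46.6, 51.4, 42.9 and 40.9 CPM in the control libraries. The highest bigenic library lay well below the lowest control, and the gene was 2.40-fold lower (log2 fold change -1.26 ± 0.09, SE; adjusted p = 5.2e-06), with group means of 18.9 ± 1.12 CPM against 45.4 ± 4.60 CPM (SD, n = 4). P4ha1, which encodes the catalytic subunit of the major prolyl 4-hydroxylase (chromosome 10, 59323296 to 59373304, plus strand), was at 26.8, 30.0, 25.4 and 24.3 CPM in the bigenic and 53, 65.1, 61.8 and 60.3 CPM in the control libraries. Again the groups did not overlap, and the fold change was 2.25 downward (log2 fold change -1.17 ± 0.09, SE; adjusted p = 8.7e-06). P4ha2, a second catalytic subunit, was at 6.65, 7.17, 5.48 and 6.01 CPM in the bigenic and 8.84, 7.36, 8.15 and 7.52 CPM in the control libraries, a smaller difference of -0.33 ± 0.13 on the log2 scale (SE; adjusted p = 0.049), and its call was lost on leaving out any library other than bigenic library 2 (adjusted p between 0.062 and 0.12). Per length, Serpinh1 and P4ha1 stood at 19.1 and 15.3 FPKM (fragments scaled to transcript length and library depth) in controls, above all 41 collagens, and at 7.51 and 6.40 FPKM in bigenic tissue.

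The bases just before the start of these genes are shown because they had the 2 smallest p-values of the 52, from RefSeq on build GRCm38.p6. Each is the stretch of 250 bases before the annotated start, 5′ to 3′ on the gene's own strand, with capitals marking ACGTG or GCGTG, the core letters to which hypoxia-inducible factors bind, on either strand. Serpinh1 (chr7:99353240-99353489, minus strand) holds 1 match, and P4ha1 (chr10:59323046-59323295, plus strand) holds 3, none overlapping another.
Serpinh1: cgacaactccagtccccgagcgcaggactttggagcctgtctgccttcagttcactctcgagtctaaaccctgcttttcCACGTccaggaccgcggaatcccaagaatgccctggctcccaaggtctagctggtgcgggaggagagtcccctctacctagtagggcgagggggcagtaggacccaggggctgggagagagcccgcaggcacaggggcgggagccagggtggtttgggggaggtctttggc
P4ha1: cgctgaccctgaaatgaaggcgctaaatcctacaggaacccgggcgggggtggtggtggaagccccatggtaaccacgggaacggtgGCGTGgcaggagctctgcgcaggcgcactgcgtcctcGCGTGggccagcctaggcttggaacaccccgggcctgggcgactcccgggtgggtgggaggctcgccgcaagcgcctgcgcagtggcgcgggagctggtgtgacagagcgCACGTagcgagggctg
Such letters are common: ACGTG was in 16.57% and GCGTG in 28.16% of the 32851 promoter windows of this length, and in 9 and 13 of the 38 genes of the set that had a window. The spaced heat shock pairs GAANNTTC and TTCNNGAA, searched on both strands and found in 6.69% and 7.17% of all windows, were in neither stretch. A match describes the sequence and shows no binding.

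Among the lysyl hydroxylases, Plod2, which modifies the telopeptide sites that carry cross-links, was at 12.9, 14.3, 12.8 and 13.5 CPM in the bigenic and 17.9, 18.4, 18.7 and 19.8 CPM in the control libraries. The 4 values of each group lay close together without overlap, a log2 difference of -0.48 ± 0.09 (SE; adjusted p = 0.0011). Plod3, which also has glycosyltransferase activity, was at 23, 24.8, 19.2 and 23.9 CPM in the bigenic and 31.9, 33.3, 26.2 and 25.9 CPM in the control libraries, with the lowest controls just above the highest bigenic library (-0.37 ± 0.11, SE; adjusted p = 0.022); the call was lost without control library 1 or control library 2 (adjusted p = 0.055 and 0.077). Plod1, with group means of 21.3 ± 3.40 CPM (bigenic) and 25 ± 1.64 CPM (control; SD, n = 4 each), did not pass (adjusted p = 0.12). Exons of Plod3 overlap Znhit1 and those of Plod2 overlap Gm38391 on the opposite strand, and Mir702 lies in Plod3 on the same strand, so reads may be shared.

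Of the 5 lysyl oxidases 2 were lower and none was higher. Loxl1, a cross-linking enzyme that also acts on elastic fibres, was at 1.20, 1.05, 0.958 and 1.47 CPM in the bigenic and 2.87, 4.03, 2.55 and 2.99 CPM in the control libraries. It was 2.65-fold lower in bigenic tissue with no overlap (log2 fold change -1.41 ± 0.21, SE; adjusted p = 0.00036). Loxl3 was at 3.85, 4.60, 3.14 and 3.53 CPM in the bigenic and 5.80, 6.59, 5.60 and 4.81 CPM in the control libraries and fell by less (-0.59 ± 0.16, SE; adjusted p = 0.0099); its exons overlap Htra2 on the opposite strand. Lox, the founding member of the family, had the opposite sign without passing, with group means of 4.11 ± 0.665 CPM (bigenic) and 3.16 ± 0.543 CPM (control; SD, n = 4 each) (log2 difference 0.38 ± 0.18, SE; adjusted p = 0.098). Loxl2 and Loxl4 were low, at means between 0.391 and 0.766 CPM, and did not pass (adjusted p = 0.41 and 0.86).

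**Figure D2:**
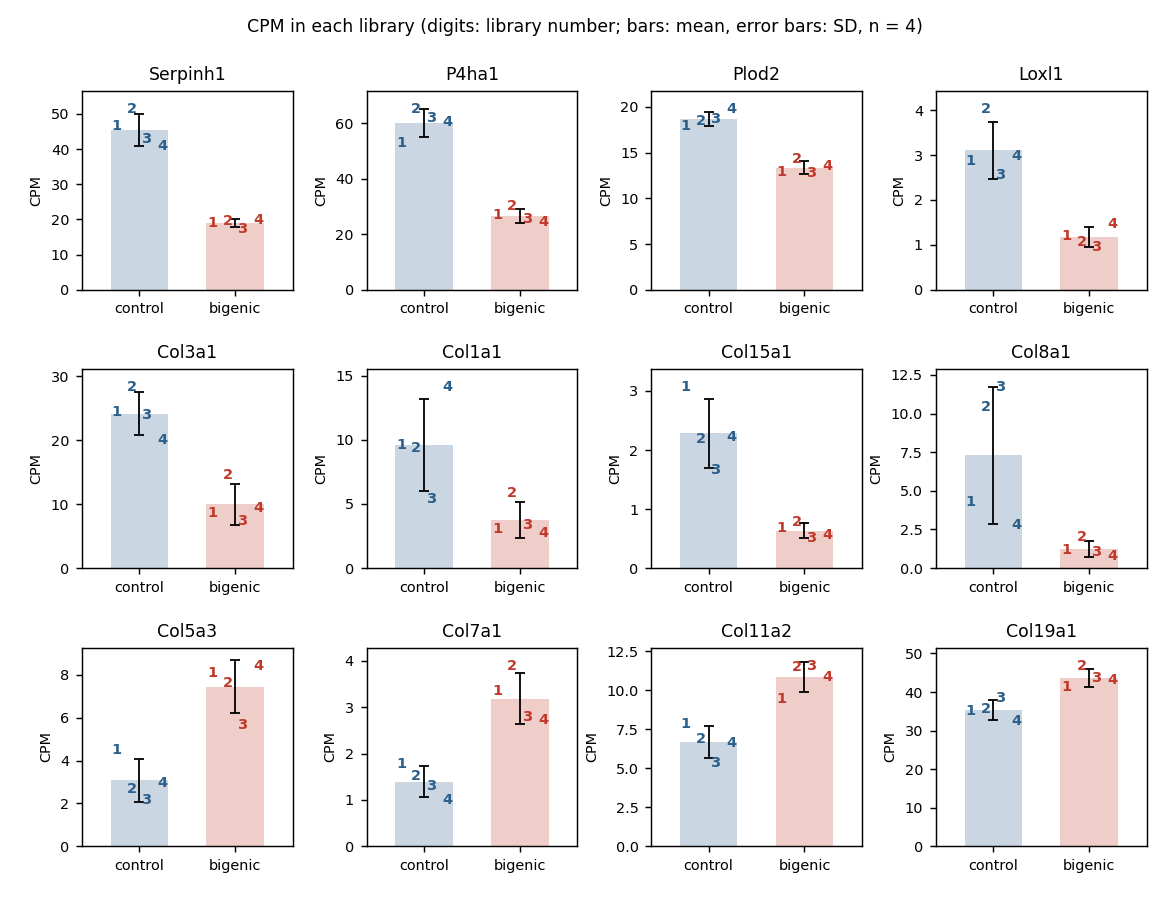
CPM of 12 genes in each library, with the digit giving the library number, the bar the group mean and the error bar the SD (n = 4). Bigenic values lie below all controls in the panels of Serpinh1, P4ha1, Plod2, Loxl1, Col3a1, Col15a1 and Col8a1 and above all controls in those of Col5a3, Col7a1, Col11a2 and Col19a1; for Col1a1, bigenic library 2 at 5.82 CPM overlaps control library 3 at 5.38 CPM.

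Fibrillar collagens moved in both directions, with 5 of 10 lower and 3 higher. Col3a1, the chain of type III collagen found beside type I in vessel walls and meninges (chromosome 1, 45311538 to 45349706, plus strand), was at 8.56, 14.5, 7.30 and 9.35 CPM in the bigenic and 24.3, 28.2, 23.9 and 20.0 CPM in the control libraries. Every bigenic library was below every control, a 2.43-fold difference (log2 fold change -1.28 ± 0.19, SE; adjusted p = 0.00041). Col1a1, the α1 chain of type I collagen (chromosome 11, 94936224 to 94953042, plus strand), was at 3.02, 5.82, 3.32 and 2.75 CPM in the bigenic and 9.62, 9.33, 5.38 and 14.1 CPM in the control libraries. Control library 4 was the highest, bigenic library 2 exceeded control library 3, and the log2 fold change was -1.36 ± 0.30 (SE; adjusted p = 0.0035). Col1a2, the partner chain of the same molecule, was at 47, 53.5, 44.6 and 42.4 CPM in the bigenic and 52.9, 51.7, 43.8 and 40.0 CPM in the control libraries. Its groups overlapped fully, with a log2 difference of -0.01 ± 0.11 (SE; adjusted p = 0.96). Reads of Col3a1 may be shared with Gm47302, which overlaps its exons on the same strand.

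The chains of types I and III were also set against each other per length. The FPKM of Col1a1 divided by that of Col1a2 was 0.0704, 0.119, 0.0814 and 0.0710 in bigenic and 0.199, 0.198, 0.135 and 0.385 in control libraries. No bigenic value reached the lowest control. The ratio of Col3a1 to Col1a2 was 0.168, 0.251, 0.151 and 0.204 in bigenic and 0.425, 0.505, 0.505 and 0.462 in control libraries, again without overlap. These ratios were chosen after the values were seen and carry no test.

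**Figure D3:**
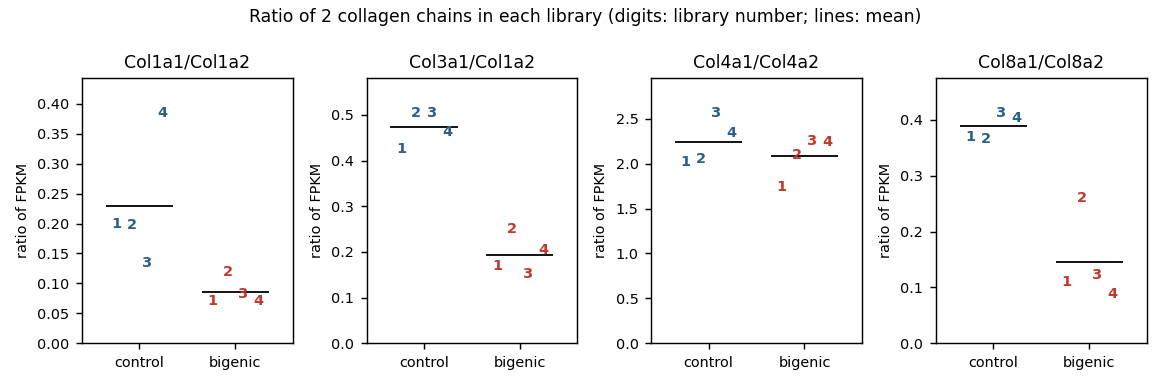
Ratio of the FPKM of 2 collagen chains in each library, with digits giving the library number and lines the group mean. Col1a1 and Col3a1 relative to Col1a2, and Col8a1 relative to Col8a2, are lower in all bigenic than in all control libraries, whereas the ratio of Col4a1 to Col4a2 overlaps between the groups (means 2.08 and 2.24). The ratios were chosen after the values were seen and carry no test.

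Type V and type XI collagens, which set the diameter of fibrils, moved in both directions. Col5a3 (chromosome 9, 20770050 to 20815067, minus strand) stood at 8.07, 7.63, 5.66 and 8.43 CPM in the bigenic and 4.51, 2.69, 2.16 and 2.96 CPM in the control libraries. The lowest bigenic library exceeded the highest control, a 2.41-fold rise (log2 fold change 1.27 ± 0.22, SE; adjusted p = 0.00077). Col11a2 was at 9.47, 11.5, 11.6 and 10.8 CPM in the bigenic and 7.84, 6.85, 5.35 and 6.65 CPM in the control libraries and rose without overlap (0.70 ± 0.13, SE; adjusted p = 0.0016). Col5a1 rose by 0.52 ± 0.17 (SE; adjusted p = 0.025), whereas Col5a2 changed by -0.57 ± 0.17 (SE; adjusted p = 0.016) and Col11a1 by -0.59 ± 0.20 (SE; adjusted p = 0.029). Of these smaller differences, the call of Col5a2 was lost without control library 2 (adjusted p = 0.059), that of Col5a1 without bigenic library 1 or 4 or control library 2, 3 or 4 (adjusted p between 0.053 and 0.075), and that of Col11a1 without bigenic library 1 or 3 or control library 3 or 4 (adjusted p between 0.062 and 0.081). Exons of Col5a1 overlap 2810430I11Rik and Gm13372 on the opposite strand.

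Col2a1, the cartilage collagen, was at 1.17, 1.16, 1.32 and 1.06 CPM in the bigenic and 1.91, 2.38, 2.05 and 1.87 CPM in the control libraries. All bigenic libraries were below all controls (-0.80 ± 0.18, SE; adjusted p = 0.0044). Col27a1 did not pass (0.08 ± 0.23, SE; adjusted p = 0.81). Among 13 markers of meningeal and perivascular fibroblasts, the main makers of fibrillar collagen in brain, 4 were lower and 3 higher (Fmod, Mgp and Foxc1), with a median log2 fold change of -0.29. Of all genes tested 22.9% were lower and 21.4% higher. Without control libraries 2 and 3, 0 were lower and 2 higher, against 11.4% and 10.4% of all genes, with a median of -0.06. With Ttr as a covariate 0 were lower and 3 higher, against 11% and 8.41% of all genes, with a median of 0.26. Their summed level was between 276 and 345 CPM in bigenic and between 267 and 417 CPM in control libraries, with no marker at 0 in any library. Dcn, a marker of fibroblasts, was at 42.4, 37, 53.1 and 45.6 CPM in the bigenic and 43.1, 51.9, 56.5 and 49.6 CPM in the control libraries with overlapping groups (adjusted p = 0.24), and Lum, another, was at 2.97, 2.76, 5.12 and 4.37 CPM in the bigenic and 5.16, 7.90, 6.65 and 7.02 CPM in the control libraries, lower in bigenic tissue (adjusted p = 0.0085). The part of these cells in the collagen differences was not tested.

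Of the 6 chains of collagen IV, the network of basement membranes, 1 was higher and 1 lower. Its 2 major chains are encoded head to head on chromosome 8, Col4a1 on the minus strand (11198423 to 11312826) and Col4a2 on the plus strand (11312805 to 11449287). Their annotated first exons overlap, so reads there may be shared. Col4a1 was at 43.3, 50.2, 40.4 and 38.4 CPM in the bigenic and 40.3, 34.3, 32.5 and 30.9 CPM in the control libraries. The groups overlapped by a small margin, with bigenic libraries higher on average (0.32 ± 0.11, SE; adjusted p = 0.031), and the call was lost without bigenic library 1 or 2 or control library 2, 3 or 4 (adjusted p between 0.060 and 0.090). It was also lost with upper-quartile factors and with library size alone. Col4a2 was at 24.2, 23.2, 17.4 and 16.6 CPM in the bigenic and 19.4, 16.3, 12.3 and 12.8 CPM in the control libraries, a log2 difference of 0.42 ± 0.17 (SE) that did not pass (adjusted p = 0.060). The endothelial markers, with 2 of 12 higher (Slc2a1 and Abcb1a) and 3 lower (Kdr, Tie1 and Emcn), summed to between 372.7 and 375.1 CPM in bigenic and between 321 and 358 CPM in control libraries. Without the glucose transporter Slc2a1, left out after its values were seen, they summed to between 273 and 289 CPM in bigenic and to between 284 and 317 CPM in control libraries. The pericyte markers, with 1 of 9 higher and 2 lower, summed to between 194 and 216 CPM and between 198 and 232 CPM, the higher being the receptor Pdgfrb (0.45 ± 0.12, SE; adjusted p = 0.0088) and the lower Vtn (-0.23 ± 0.08, SE; adjusted p = 0.028) and Anpep (-0.87 ± 0.32, SE; adjusted p = 0.047). Beside these marker counts, 21.4% of all genes tested were higher and 22.9% lower. None of the endothelial and pericyte markers was at 0 in any library, and the part of vessel cells was not tested.

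The minor chains of collagen IV lie in 2 further head-to-head pairs. Col4a6 was at 3.51, 3.71, 4.34 and 4.26 CPM in the bigenic and 5.99, 5.46, 5.96 and 5.18 CPM in the control libraries. It was lower in all bigenic libraries (-0.51 ± 0.13, SE; adjusted p = 0.0081), whereas its neighbour on the X chromosome, Col4a5, had group means of 11.9 ± 0.916 CPM (bigenic) and 12.1 ± 1.46 CPM (control; SD, n = 4 each) (adjusted p = 0.85). Col4a3 and Col4a4, whose starts lie 72 bases apart on chromosome 1, were near 1 CPM and did not pass (adjusted p = 0.98 and 0.29). Col4a4 was at 1.38 and 1.44 CPM in control libraries 2 and 3 and between 0.473 and 0.839 CPM in the other 6.

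Type VIII collagen, a short-chain network collagen, was highest in the libraries with the most Ttr. Col8a1 was at 1.20, 2.00, 1.02 and 0.779 CPM in the bigenic and 4.27, 10.4, 11.7 and 2.79 CPM in the control libraries. Control libraries 2 and 3 were the highest, as for Ttr, but control library 4, with Ttr at the bigenic level, was still above all bigenic libraries. Other choroid plexus markers in control library 4 were not at the bigenic level. Kl, Prlr, Enpp2, Otx2, Calml4 and Sostdc1 lay above every bigenic library there, and Kcne2, Clic6, Slc4a5, Kcnj13 and Aqp1 below every bigenic library. The part of choroid plexus in the Col8a1 difference was not tested. The log2 fold change was -2.54 ± 0.47 with all libraries (SE; adjusted p = 0.0018), -1.49 without control libraries 2 and 3 (adjusted p = 0.016), and -1.0 with Ttr as a covariate (adjusted p = 0.10). Col8a2 was at 9.24, 6.55, 7.06 and 7.57 CPM in the bigenic and 9.80, 24.1, 24 and 5.85 CPM in the control libraries. Here control library 4 was below every bigenic library, and the log2 difference of -1.07 ± 0.41 (SE; adjusted p = 0.061) became -0.04 without control libraries 2 and 3. Relative to Col8a2 per length, Col8a1 was at 0.110, 0.259, 0.122 and 0.0872 in bigenic and at 0.369, 0.366, 0.413 and 0.404 in control libraries. This ratio was also chosen after the values were seen and carries no test.

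Col7a1, the chain of anchoring fibrils (chromosome 9, 108953586 to 108984875, plus strand), went the other way. It was at 3.34, 3.90, 2.78 and 2.73 CPM in the bigenic and 1.77, 1.51, 1.30 and 0.996 CPM in the control libraries. All bigenic libraries were above all controls, a 2.28-fold rise (log2 fold change 1.19 ± 0.21, SE; adjusted p = 0.0010). With control library 4 as the only control the log2 fold change was 1.68 (adjusted p = 0.021). The microRNA gene Mir711 lies within its exons on the same strand.

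Of 5 chains of collagen VI, which forms beaded filaments around cells and vessels, 2 were lower and none was higher. Col6a1 had group means of 20.0 ± 1.89 CPM (bigenic) and 16.7 ± 3.12 CPM (control; SD, n = 4 each) (adjusted p = 0.12). Col6a2 had group means of 7.41 ± 1.26 CPM (bigenic) and 8.89 ± 2.16 CPM (control; SD, n = 4 each) (adjusted p = 0.26), and neither passed. Col6a3, the longest of the classical chains, was at 1.54, 2.81, 1.32 and 1.61 CPM in the bigenic and 3.20, 4.00, 2.80 and 2.86 CPM in the control libraries. Bigenic library 2 slightly exceeded control library 3, and the gene was lower overall (-0.82 ± 0.24, SE; adjusted p = 0.017), a call lost without control library 2 (adjusted p = 0.059). Col6a6 was at 0.0571, 0.270, 0.269 and 0.0834 CPM in the bigenic and 0.618, 0.410, 0.360 and 0.399 CPM in the control libraries, the product of between 2 and 23 counts per library (-1.38 ± 0.45, SE; adjusted p = 0.026). Its call was lost without bigenic library 1 or 4 or control library 1 (adjusted p between 0.066 and 0.077). The inclusion of Col6a6 rested on the control group, so that a difference was built into it. Col6a4, at most 0.449 CPM, did not pass (adjusted p = 0.11).

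Fibril-associated collagens, which decorate the surface of fibrils, were mostly not past the threshold, with 1 of 9 higher and 2 lower. Col19a1, a collagen also made by neurons, was at 41.2, 46.8, 43.7 and 43.2 CPM in the bigenic and 35, 35.7, 38.6 and 32.4 CPM in the control libraries. Every bigenic library was above every control by a small margin (0.30 ± 0.08, SE; adjusted p = 0.010). Col12a1 was at 13.2, 17.8, 11.7 and 13 CPM in the bigenic and 19.4, 19.9, 18.6 and 15.9 CPM in the control libraries, with bigenic library 2 inside the control range (-0.41 ± 0.13, SE; adjusted p = 0.028), and the call was lost without any of bigenic libraries 1, 3 and 4 or control libraries 1, 2 and 3 (adjusted p between 0.059 and 0.080). Col14a1 was at 0.485, 0.757, 0.479 and 0.668 CPM in the bigenic and 0.752, 2.18, 1.94 and 0.847 CPM in the control libraries. Its 2 high values were those of control libraries 2 and 3, and the log2 fold change of -1.25 ± 0.37 (SE; adjusted p = 0.017) became -0.42 without both (adjusted p = 0.39). Leaving out control library 2 or control library 3 alone also ended this call (adjusted p = 0.064 and 0.055). Type IX chains did not pass. Col9a3, the collagen with the highest level per length in controls at 13.0 FPKM, was at 37.6, 31.4, 35.4 and 32.9 CPM in the bigenic and 39.4, 41.3, 37.0 and 26.2 CPM in the control libraries. Its groups overlapped (-0.07 ± 0.13, SE; adjusted p = 0.70). Col9a2 and Col9a1 had adjusted p of 0.45 and 0.54. Col16a1, Col20a1 and Col22a1 also did not pass (adjusted p between 0.27 and 0.90).

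Of the 2 multiplexins, basement membrane collagens whose ends release endostatin-like fragments, 1 was lower. Col15a1 (chromosome 4, 47208161 to 47313167, plus strand) was at 0.685, 0.784, 0.509 and 0.556 CPM in the bigenic and 3.06, 2.18, 1.66 and 2.22 CPM in the control libraries. It was 3.58-fold lower in bigenic tissue, with the highest bigenic library far below the lowest control (log2 fold change -1.84 ± 0.25, SE; adjusted p = 0.00019). Gm12426 overlaps its exons on the opposite strand. Col18a1, the collagen with the highest level per length in bigenic tissue at 14.4 FPKM, was at 87.8, 89.1, 78.4 and 87.3 CPM in the bigenic and 90.4, 72.2, 65.4 and 53.9 CPM in the control libraries. Control library 1 was the highest and control library 4 the lowest of all 8, and the gene did not pass (0.28 ± 0.13, SE; adjusted p = 0.099).

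Of the 4 transmembrane collagens 1 was lower. Col25a1, a collagen of neurons, was at 3.45, 4.57, 2.81 and 3.06 CPM in the bigenic and 4.32, 6.15, 4.79 and 13.3 CPM in the control libraries. Control library 4 stood far above the other 7, and the log2 fold change of -1.04 ± 0.33 (SE; adjusted p = 0.024) shrank to -0.55 without it, while the call was lost without bigenic library 1, 3 or 4 (adjusted p between 0.057 and 0.080). Col13a1, Col17a1 and Col23a1 did not pass (adjusted p = 0.65, 0.081 and 0.22). Nor did Col26a1 and Col28a1, both near or below 1 CPM (adjusted p = 0.058 and 0.29).

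**Figure D4:**
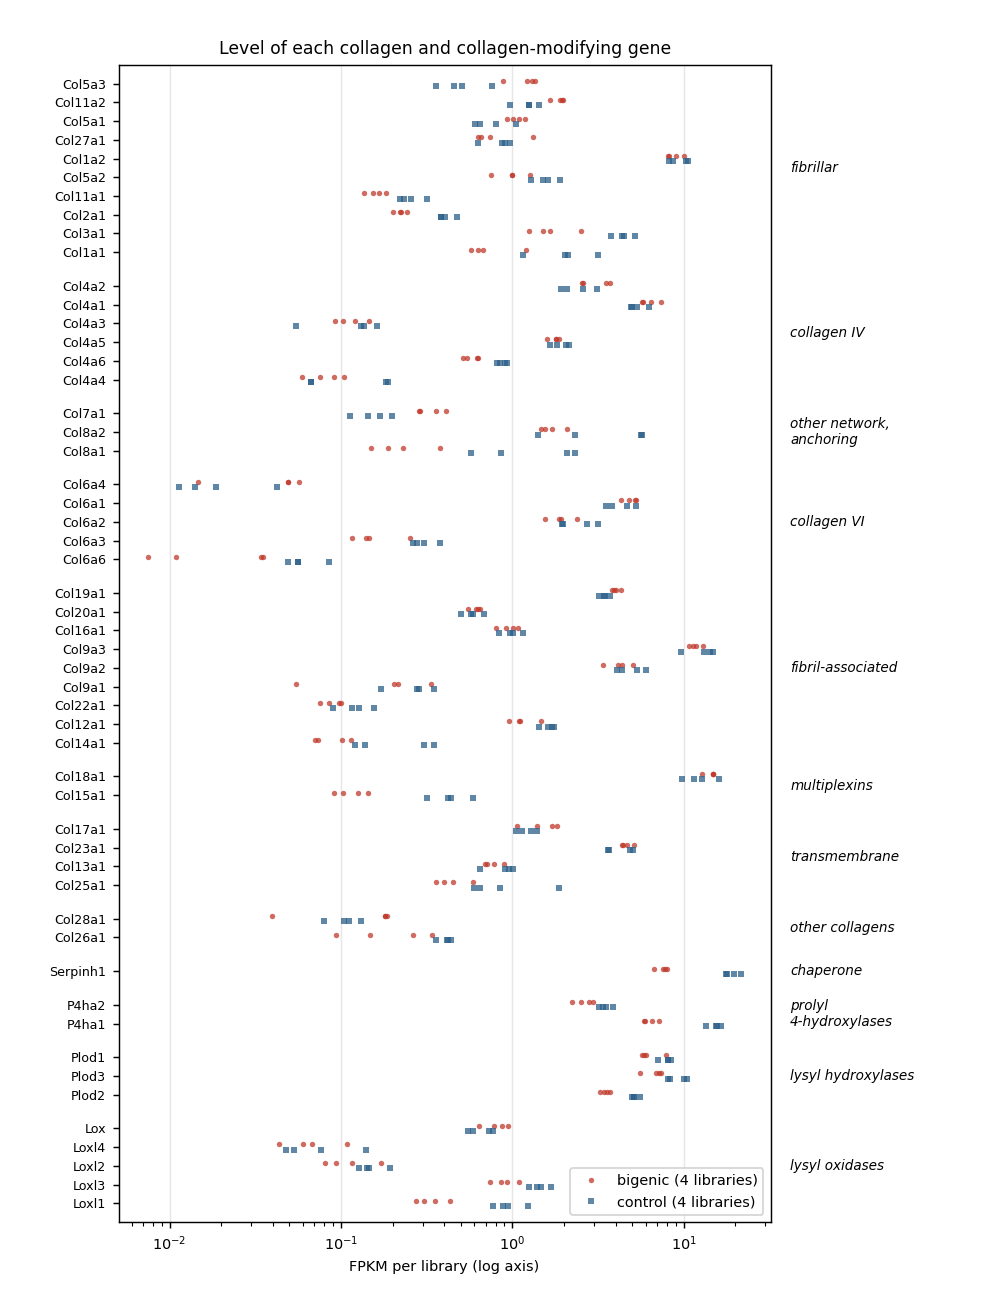
FPKM of each of the 52 genes in each library on a log axis, red circles for bigenic and blue squares for control libraries, grouped by role. Levels span from below 0.1 FPKM (Col6a4 and Col6a6 among others) to 21.6 FPKM for Serpinh1 in control library 2. The control values of Serpinh1 and of P4ha1 stand clear of their bigenic values.

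Because Ttr was raised in 3 of the 4 controls, all 26 called genes were followed under fits meant to reduce this difference. The covariate did not do so evenly. Of 12 choroid plexus markers tested, 2 were higher with it and 1, Prlr, was lower. Kcne2 turned from -4.43 to 4.52 and Clic6 from -0.24 to 0.87 on the log2 scale, so folds with the covariate can be shifted upward. All 26 kept their sign without control libraries 2 and 3, with Ttr as a covariate, and with control library 4 as the only control. Each of these fits shares the 4 bigenic libraries and control library 4 with the fit that chose the genes. The kept signs are therefore no separate support. Without control libraries 2 and 3, 13 of the 26 still passed, and in that fit 9 of the 52 genes were lower and 4 higher, against 11.4% and 10.4% of all genes tested. With the Ttr covariate 10 of the 26 passed, 8 lower and 2 higher, against 11% and 8.41% of all genes. They were Serpinh1, P4ha1, Plod2, Loxl1, Col1a1, Col3a1, Col15a1, Col25a1, Col7a1 and Col19a1. With control library 4 as the only control, a setting in which the spread of the lone control is taken from the bigenic libraries, 9 passed (in that fit 6 of the 52 were lower and 4 higher, against 6.47% and 5.03% of all genes): Serpinh1, P4ha1, Loxl1, Col1a1, Col15a1, Col25a1, Col5a1, Col5a3 and Col7a1. Under that setting Serpinh1 was at -1.11 and P4ha1 at -1.17 on the log2 scale (adjusted p = 0.0047 and 0.0042), beside -1.26 and -1.17 with all libraries. For Col25a1 the fold was larger in each of these fits, all of which include the control library 4 that stood apart (-1.34 without control libraries 2 and 3, -1.78 with the covariate and -1.93 with library 4 alone, against -1.04 with all libraries and -0.55 without library 4). Control library 4 also held the highest control value of Col1a1 and the lowest of Col7a1, and their folds grew too. Col1a1 went from -1.36 with all libraries to -1.67 without control libraries 2 and 3, -1.96 with the covariate and -1.91 with library 4 alone. Col7a1 went from 1.19 to 1.20, 1.53 and 1.68 in the same order. Calls that ended both without control libraries 2 and 3 and with the covariate were those of Col2a1, Col4a1, Col4a6, Col5a1, Col5a2, Col6a3, Col6a6, Col11a1, Col12a1, Col14a1, P4ha2, Plod3 and Loxl3. These fits have fewer samples or fewer degrees of freedom, and why the calls ended was not tested. Col11a1 was at -0.59 with all libraries, -0.68 without the 2 controls and -0.83 with the covariate, Col6a6 at -1.38, -1.56 and -1.43, Col5a2 at -0.57, -0.54 and -0.51, and Col5a1 at 0.52, 0.44 and 0.73. Col14a1 shrank from -1.25 to -0.42 and -0.30, and Col12a1 from -0.41 to -0.34 and -0.23. The calls of Col5a3, Col11a2 and Col8a1 ended with the covariate alone (adjusted p = 0.052, 0.077 and 0.10). Col5a3 was then at 1.1 and Col11a2 at 0.60, beside 1.27 and 0.70 with all libraries, while Col8a1 shrank from -2.54 to -1.0.

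**Figure D5:**
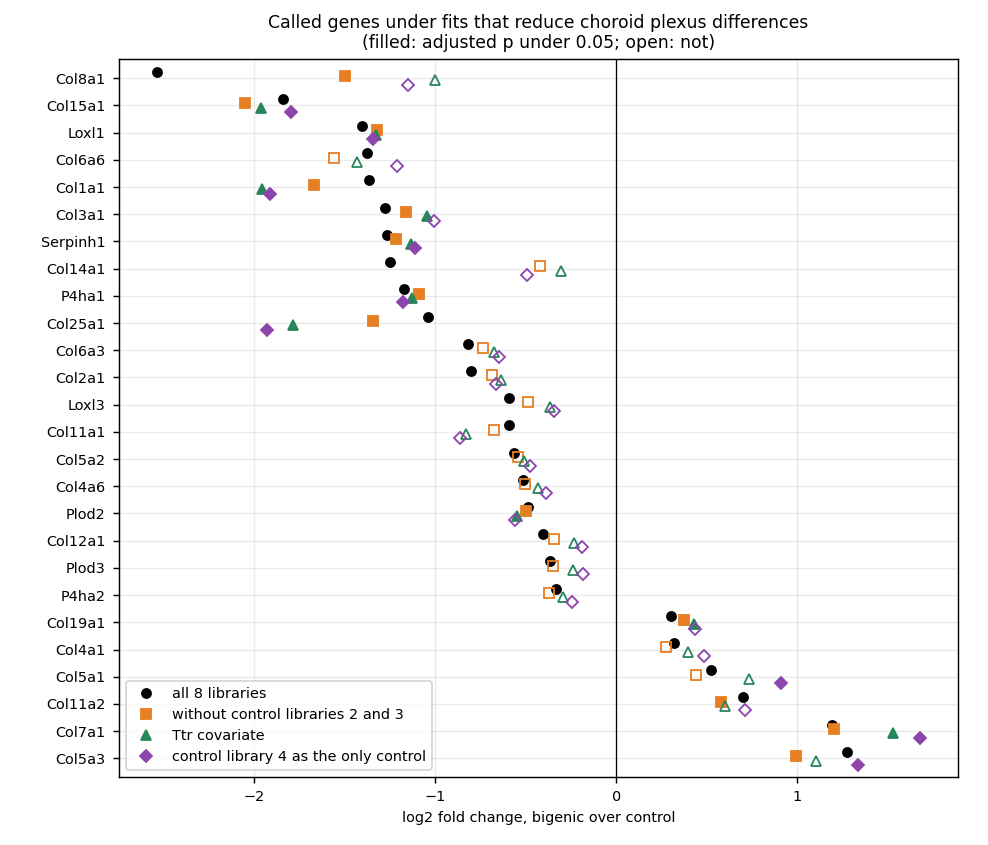
Log2 fold change of the 26 called genes with all 8 libraries (black) and under 3 fits meant to reduce the difference in choroid plexus transcripts. Control library 4, which is in each fit, also held the highest control value of Col1a1 and the lowest of Col7a1. Filled symbols passed at an adjusted p under 0.05; Serpinh1, P4ha1, Loxl1, Col1a1, Col15a1 and Col7a1 are filled in all 4, as is Col25a1, whose high control library 4 is in each fit, and no gene crosses 0.

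Other genes of the collagen pathway were counted from lists drawn up by function. Of 66 tested, 12 were higher and 18 lower, where 21.4% and 22.9% of all genes were. In the list of further folding and modifying genes 3 of 13 rose and 5 fell. Colgalt2, a galactosyltransferase that adds sugars to hydroxylysine, was at 2.31, 2.95, 2.45 and 2.09 CPM in the bigenic and 4.51, 4.33, 4.88 and 5.95 CPM in the control libraries, without overlap (-1.0 ± 0.16, SE; adjusted p = 0.00064). Its paralogue Colgalt1 (Glt25d1 in the table) changed by -0.54 ± 0.13 (SE), and did not pass without control libraries 2 and 3 (-0.49, adjusted p = 0.066) or with the Ttr covariate (-0.46, adjusted p = 0.12). The prolyl isomerase Fkbp14 changed by -0.56 ± 0.10 (SE). P3h4 (Leprel4 in the table), a partner of the lysyl hydroxylase complex, rose by 0.57 ± 0.10 (SE). P4hb, the protein disulfide isomerase that serves as the β subunit of prolyl 4-hydroxylase, had group means of 167 ± 21 CPM (bigenic) and 151 ± 5.84 CPM (control; SD, n = 4 each) and did not pass (adjusted p = 0.22), nor did the cyclophilin Ppib (adjusted p = 0.99).

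In the list for procollagen export and processing 4 of 13 rose and 3 fell, where 21.4% and 22.9% of all genes tested did so. Adamts14, a protease that trims the amino-terminal end of procollagen, was at 1.31, 0.730, 0.688 and 0.862 CPM in the bigenic and 0.0806, 0.128, 0.139 and 0.199 CPM in the control libraries. It was low in all libraries (log2 difference 2.68 ± 0.36, SE; adjusted p = 0.00018), and with 3 to 8 counts in each control library it passed the filter only through the bigenic group, so that a difference was built into its inclusion. The carboxy-terminal proteases of the tolloid family Tll1 and Tll2 changed by -0.51 ± 0.07 and -1.75 ± 0.28 (SE), both lower without overlap, whereas Bmp1, of the same family, was higher without overlap (0.53 ± 0.14, SE; adjusted p = 0.0098; 0.44 and adjusted p = 0.10 without control libraries 2 and 3). Of the enhancers of that cleavage, Pcolce changed by -0.88 ± 0.20 (SE), highest in control libraries 2 and 3 and no longer past the threshold without them (-0.50, adjusted p = 0.091), and Pcolce2 rose by 0.59 ± 0.16 (SE; adjusted p = 0.013; 0.84 and adjusted p = 0.015 without those libraries). Bmp1 and Pcolce2 were named after their values were seen.

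Beside 22.9% of all genes lower and 21.4% higher, of 10 collagen receptors tested 3 fell, the integrin chain Itga1 (-0.49 ± 0.13, SE), the receptor kinase Ddr2 (-0.51 ± 0.14, SE) and the endocytic receptor Mrc2 (-0.64 ± 0.19, SE), and 1 rose, the adhesion receptor Adgrg1, listed as Gpr56 (0.32 ± 0.11, SE). None of these 4 passed without control libraries 2 and 3 (adjusted p between 0.11 and 0.29), where Itga1 was at -0.41, Ddr2 at -0.31, Mrc2 at -0.58 and Gpr56 at 0.22 on the log2 scale. Mrc2 was also lost without control library 2 alone (adjusted p = 0.057), and Gpr56 without bigenic library 2, 3 or 4 or control library 1, 2 or 3 (adjusted p between 0.056 and 0.095). Of 6 collagen-degrading proteases 4 fell: the membrane-bound metalloproteinases Mmp15, at 6.70, 9.31, 5.15 and 6.37 CPM in the bigenic and 13.7, 14.7, 12.6 and 12.4 CPM in the control libraries (-0.95 ± 0.16, SE; adjusted p = 0.00077), Mmp16 (-0.43 ± 0.10, SE) and Mmp14 (-0.38 ± 0.14, SE), and the gelatinase Mmp2 (-0.73 ± 0.26, SE). The calls of the last 2 depended on single libraries: Mmp2 was lost without bigenic library 1 or 4 or control library 2 or 4 (adjusted p between 0.054 and 0.14), and Mmp14 without bigenic library 1, 3 or 4 or control library 1, 2 or 3 (adjusted p between 0.066 and 0.14). Neither passed without both control libraries 2 and 3, with Mmp2 at -0.50 (adjusted p = 0.24) and Mmp14 at -0.25 (adjusted p = 0.31), and Mmp16, at -0.45, did not pass with the Ttr covariate (adjusted p = 0.066).

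The matrix partners of collagen moved in both directions. Sparc, a secreted collagen-binding glycoprotein, was at 1065, 1057, 1203 and 1131 CPM in the bigenic and 708, 726, 666 and 746 CPM in the control libraries. Every bigenic library was above every control (0.65 ± 0.07, SE; adjusted p = 6.2e-05). Fmod, a proteoglycan on collagen fibrils, rose by 0.66 ± 0.15 (SE), while its relative Lum fell (-0.82 ± 0.21, SE). Lum was at -0.68 without control libraries 2 and 3 (adjusted p = 0.091) and at -0.81 with the Ttr covariate (adjusted p = 0.087), past the threshold in neither. Among 12 other basement membrane genes 2 rose and 2 fell, where 21.4% and 22.9% of all genes tested did so. The laminin chains Lama2 (0.36 ± 0.08, SE) and Lamc1 (0.48 ± 0.11, SE) were higher. Lama4, a laminin chain of vessels, at 5.79, 7.44, 6.13 and 6.65 CPM in the bigenic and 11.6, 13.6, 15.3 and 9.36 CPM in the control libraries, and Lamb1 (-0.55 ± 0.14, SE) were lower. The log2 fold change of Lama4 was -0.94 ± 0.16 (SE; adjusted p = 0.00069), and -0.51 with the Ttr covariate (adjusted p = 0.071). Lamb1 was highest in control libraries 2 and 3 and did not pass without them (-0.35, adjusted p = 0.15).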

How the data were processed

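RNA from whole cerebellum of 4 bigenic and 4 control mice was sequenced. The authors deposited raw gene counts and FPKM for each library; alignment with STAR and counting with HTSeq on mm10 are named in the submitters' processing notes, while strand handling is not given in the sources used here. The series' design text and the sample protocols name different RNA and library kits, so the kit is not stated here. Each group's libraries carry numbers 1 to 4 in the labels and are taken as separate mice.

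Counts were filtered with filterByExpr and tested with edgeR 4.0.16 (R 4.3.3; TMM factors, robust quasi-likelihood fit, Benjamini-Hochberg adjustment over 15186 genes, threshold 0.05). CPM values use the TMM factors. Alternatives used other factors, no filter, DESeq2 1.42.0, limma 3.58.1 on log2(FPKM + 1) and log2(FPKM + 0.1) with a mean FPKM minimum of 0.1, a replicate block, a Ttr covariate (log2 CPM, prior count 0.5), and left-out libraries. The fit was tested on simulated counts of 15074 genes, 197 of them changed, where 83.5% of 2-fold and 47% of 1.5-fold changes were recovered. The share of false calls there was 6.57%. In the data 44.3% of all genes tested were called, so the simulated shares may not carry over. Coordinates are from GENCODE M21 (GRCm38), to which all 52 genes matched by symbol; 14 overlap exons of another gene on the opposite strand and 5 on the same strand. Promoter windows are from RefSeq on GRCm38.p6.

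Genes named were all members by role, with full statistics for those called without overlap, for Serpinh1 and for the 4 collagens with the highest mean FPKM, and from each list of other genes up to 4 called genes with the smallest p. P4hb and Ppib, which were not called, and Bmp1 and Pcolce2 were named outside this rule. Members and lists were chosen with earlier results of these data known.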

Additional observations from a re-analysis of the deposited data

Results flagged for a closer look

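In 3 of the 104 groups of 4 libraries examined (52 genes in 2 groups), 1 library stood apart from the other 3 by Dixon's criterion (gap over range above 0.829), where chance flags about 1 in 20. Col27a1 was at 10.4 CPM in bigenic library 2 and between 4.90 and 5.79 CPM in the other bigenic libraries. Plod1, in the same library, was at 26.3 CPM against 18.9 to 20.1 CPM. Col28a1 was at 0.171 CPM in bigenic library 1 and between 0.779 and 0.811 CPM in the others.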

How the results depend on the processing

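Of the 26 calls among the 52 genes, 8 held in all 17 alternatives other than control library 4 as the only control: Serpinh1, P4ha1, Plod2, Loxl1, Col15a1, Col1a1 and Col3a1, lower, and Col7a1, higher. Leaving out 1 library at a time gave 4 to 8 higher and 14 to 22 lower genes of the set, 5281 to 7411 genes called over the whole table (2544 to 3588 higher, 2737 to 3823 lower), and 11 to 13 higher and 15 to 23 lower among the other collagen-pathway genes. On the log2(FPKM + 1) scale and on log2(FPKM + 0.1) 3 of the set were higher, and the calls of Col4a1, Col5a1, Col11a1, Col14a1 and Col19a1 were lost on both, that of Col25a1 on the first.

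Without control libraries 2 and 3, 9 of the set were lower, 3394 genes were called in the whole table (1619 higher, 1775 lower) and 7 other pathway genes were lower. With the Ttr covariate 2 of the set were higher and 8 lower, 2942 genes were called (1277 higher, 1665 lower) and 6 other pathway genes were lower. With control library 4 as the only control, an alternative chosen after seeing the data, 6 of the set were lower, 1834 genes were called (802 higher, 1032 lower), and 1 other pathway gene was higher and 2 lower. These last fits use fewer samples or fewer residual degrees of freedom. The median log2 fold change of the collagens was 0.15 with the covariate and 0.13 with control library 4 alone, against -0.11 with all libraries.

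Library size alone gave 4 higher and 23 lower of the set and upper-quartile factors 5 and 22. They moved the median of all genes by -0.085 and -0.058 on the log2 scale. With a replicate block 9 of the set were higher and 20 lower, 7443 genes were called, and the call of P4ha2 was lost. Same-numbered libraries correlated at 0.373, 0.064, 0.237 and 0.090. Because the second and the fourth of these are under 0.1, the numbers were not taken to pair the mice, although 3 of the 4 bigenic libraries correlated best with their own number.

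Depth limits the genes with few counts, such as Col6a4 and Col6a6. No batch is given in the labels, and p-values cover the spread among 4 mice a group.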
